A study of Hynobius leechii and Hynobius unisacculus and Hynobius quelpaertensis with 23 samples.

Results

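NYNRIN and RTL1 are a pair of genes that mammalian genomes took over from retroelements, and both symbols were found in each of the 6 count tables of an RNA-seq series on wild salamanders of the genus Hynobius. They are 2 of the 13514 gene symbols in the series and 2 of the 2252 found in all 6 tables. They were picked because their counts in intestine and skin stood above those in liver, so their levels in those tissues are given here as a description, with no test. The choice did not compare livers between lineages, and that comparison was tested. The same liver values entered the choice, however, so the liver tests are not independent of it. The other genes of retroelement origin in the tables, and the genes that keep retroelements in check, were tested in the tissue comparisons.

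Polyadenylated RNA was sequenced from untreated adult animals caught in Korea. Intestine came from 5 animals, 1 each of the lineages HC1 and LE of H. leechii and of H. quelpaertensis (QU), H. unisacculus (UN) and H. yangi (YA). Skin came from 3 animals, 1 each of HC1, HC3 (also H. leechii) and UN. Liver came from all 15 animals, 3 in each of HC1, HC3 and LE and 2 in each of QU, UN and YA. Every animal that gave intestine or skin also gave a liver, and the animals of HC1 and UN that gave skin were those that gave intestine. Sex and exact age are not given in the labels used here, nor is whether each library was a separate extraction.

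Retroelements are mobile sequences that copy themselves through RNA, and most of their copies decay. A few coding regions have been kept by the host and work as ordinary genes. RTL1 (retrotransposon Gag-like 1) derives from the Gag and Pol region of a Gypsy-type retrotransposon, is imprinted in mice and humans, and is needed for the fetal capillaries of the mouse placenta. NYNRIN (NYN domain and retroviral integrase containing) joins an RNase fold of the NYN type to sequence from a retroviral integrase, and little is known of what it does. These roles come from mammals, where NYNRIN is held to descend from a duplicate of the gene KHNYN joined to viral sequence. The symbols were taken as deposited, and whether a symbol stands for the same locus in each salamander table, or for a mobile copy that resembles the gene, was not tested. NYNRIN is identified as ABHYNL1T00006737 in HC1, ABHYNLET00011230 in LE and ABHYNYAT00009950 in YA, and RTL1 as ABHYNL1T00007701, ABHYNLET00011253 and ABHYNYAT00009987 in the same tables.

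Levels are counts per 1000000 counts on the named genes of the same library (CPM). Totals were 1703075 to 3390245 counts in intestine, 2552636 to 4628175 in skin and 8672566 to 19281948 in liver, so 1 count weighs more in intestine and skin. A count of 0 allows up to 3 counts, which is 0.156 to 0.199 CPM in the livers where a member was at 0. The libraries were of 2 kinds. Odd numbers made up 43.0% to 51.4% of the values from 1 to 19 in 6 livers, which are the livers of the animals that also gave intestine or skin. The same share was 11.3% to 22.5% in the other 17 libraries. Symbols at 0 made up 24.3% to 40.8% of a table in those 6 livers and 0.654% to 15.9% in the other 9 livers. A low count in an even-count library may thus stand for fewer fragments than its number. Intervals and floors cover at most counting error, and take each count as a separate fragment. Intervals that use an even-count library may therefore be too narrow. Since the odd-count liver is the own liver of each animal compared, values against the even-count livers of other animals are given beside it.

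NYNRIN was high in the intestine of 2 lineages and low in every other library. The LE intestine had 7155 CPM (14079 counts), against 14.3, 32.9 and 25.7 CPM in the LE livers, of which the last was the animal's own. The YA intestine had 2333 CPM (7909 counts), against 6.29 and 13.4 CPM in the YA livers, the last again its own. The other intestines had 8.12 CPM in HC1, 1.17 CPM in QU and 8.68 CPM in UN, from 18, 2 and 26 counts. These 3 lie in the range of the LE and YA livers or under it. In HC1 the livers had 2.08 and 1.29 CPM, and the own liver was at 0. The QU livers had 0 in the animal itself and 0.250 CPM (4 counts) in the other animal, and the UN livers had 0 in the animal itself and 2.06 CPM in the other. Each of the 5 intestines stood above every liver of its own table.

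In skin NYNRIN had 1.30 CPM in HC1, 6.27 CPM in HC3 and 19.7 CPM in UN, from 6, 16 and 68 counts. The HC3 livers had 1.24 CPM, 0 in the animal's own liver, and 0.208 CPM. The skins of HC3 and UN stood above every liver of their tables. The HC1 skin lay within the range of the HC1 livers, at 0.625 times the level of the liver of animal mms7664 (95% counting interval 0.203 to 1.64) and 1.01 times that of animal mms7666 (0.331 to 2.60).

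RTL1 was spread over more lineages. The HC1 intestine had 2130 CPM (4719 counts) and the HC1 skin 902 CPM, against 697 and 817 CPM in the livers of 2 other HC1 animals and 36.6 CPM in the animal's own liver. The LE intestine had 641 CPM, against 1.46, 2.76 and 9.79 CPM in the LE livers, the last its own. The UN intestine had 330 CPM and the UN skin 849 CPM, against 9.94 CPM in the own liver and 2.69 CPM in the other liver. RTL1 was thus at 330 CPM or more in the intestines of HC1, LE and UN and in the skins of HC1 and UN, and among livers only in HC1 animals other than this one.

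In QU the RTL1 level was 68.7 CPM (117 counts) in the intestine, against 0.0519 CPM (1 count) in the own liver and 0.188 CPM (3 counts) in the other liver. The YA intestine had 2.36 CPM (8 counts), against 0 in the own liver and 0.740 CPM in the other. The HC3 skin had 6.27 CPM (16 counts), against 0 in the own liver and 3.10 and 0.623 CPM in the others. Each intestine and each skin stood above every liver of its table, at 1.10 times the highest liver in HC1 skin, 2.02 times in HC3 skin, 2.61 times in HC1 intestine and 3.19 times in YA intestine.

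**Figure D1:**
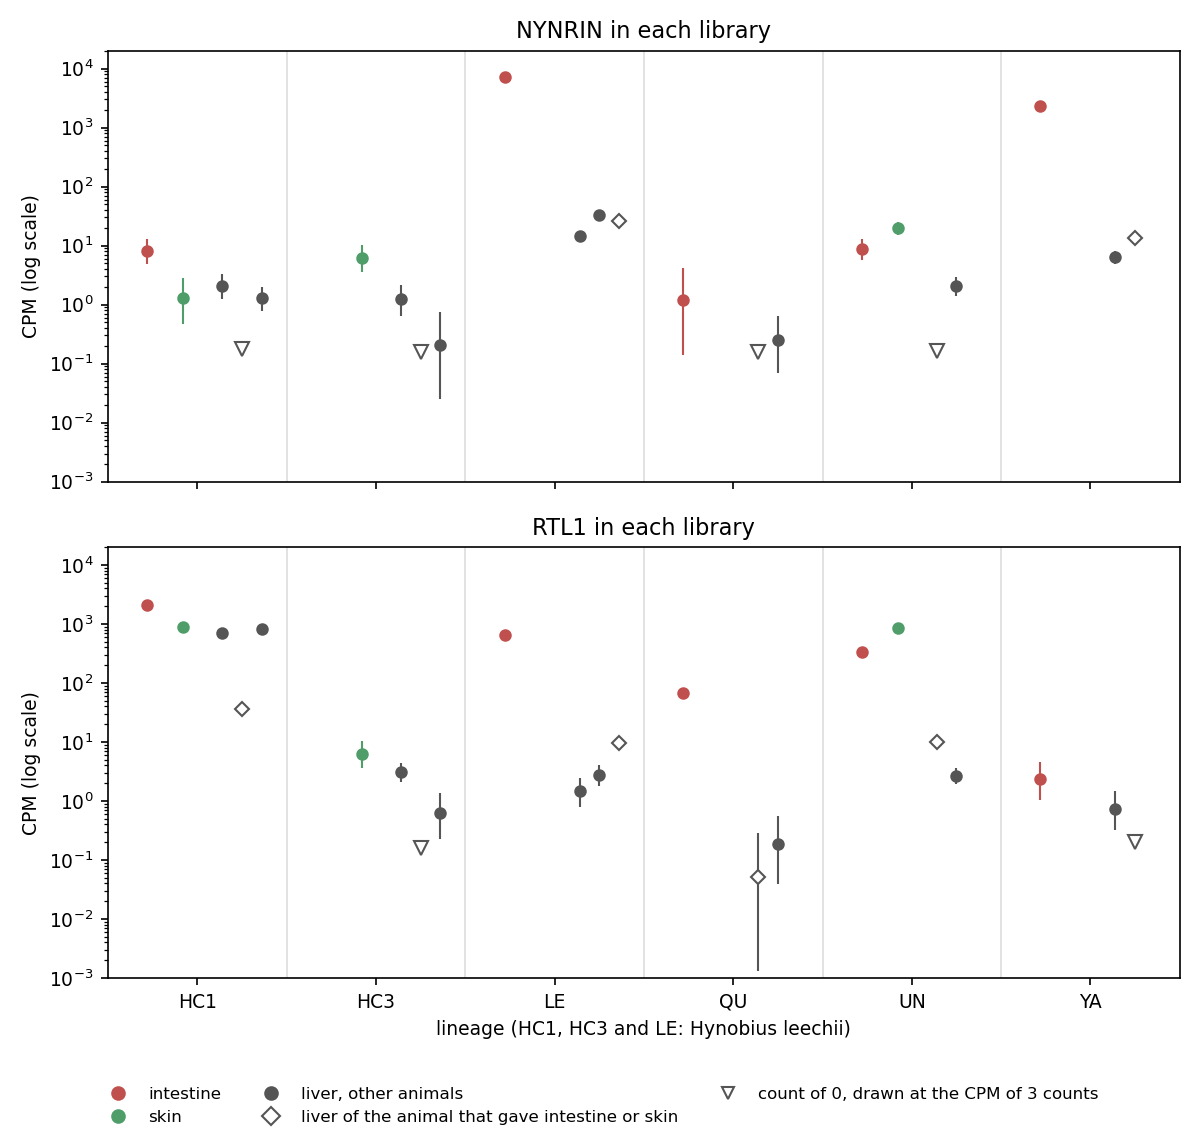
CPM of NYNRIN (upper panel) and RTL1 (lower panel) in each of the 23 libraries on a log axis, by lineage, with intestine (red), skin (green) and liver (grey) from left to right and 95% counting intervals. NYNRIN stands at 7155 and 2333 CPM in the LE and YA intestines and at 8.68 CPM or less in the other 3, while RTL1 stands at 697 and 817 CPM in the 2 filled HC1 livers and under 10 CPM in every liver of the other lineages.

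Read against all genes, the order of intestine over liver was not rare. In the separate tables the intestine was above every liver for 53.9% of the genes in HC1, 55.5% in LE, 73.1% in QU, 54.4% in UN and 57.5% in YA. Of the 2252 genes in all 6 tables, 479 (21.3%) were above every liver in all 5 intestines, as both members were. For skin the shares were 54.7% in HC1, 67.5% in HC3 and 69.1% in UN, and 865 genes (38.4%) were above in all 3, as RTL1 was. Since the members were chosen on this order, nothing is read from it.

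The size of the differences depended on the liver used. NYNRIN in the LE intestine was 279 times the own liver (254 to 307) and 502 and 218 times the other livers. In the YA intestine it was 174 times the own liver (151 to 201) and 371 times the other. In HC1 and UN, where the own liver was at 0, NYNRIN in the intestine was at least 45.5-fold and at least 52.7-fold higher, but 3.91 and 6.31 times the even-count livers of HC1 and 4.21 times that of UN. In QU no ratio to the own liver is given, since both libraries were at or under the floor, and the ratio to the other liver was 4.69 with an interval of 0.424 to 32.7. These ratios were thus 174 or more in LE and YA and 6.31 or less against the even-count livers elsewhere. In skin NYNRIN was at least 7.27-fold, at least 39.1-fold and at least 120-fold higher than the own liver in HC1, HC3 and UN. Against the even-count livers it was 5.06 times (2.25 to 11.7) and 30.2 times in HC3 and 9.58 times in UN. The value of 30.2 rests on 2 liver counts and has an interval of 7.10 to 271. With a floor of 10 counts the bounds for skin were 11.7 in HC3 and 35.9 in UN, and none could be given in HC1.

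RTL1 in the intestine was 58.2 times the own liver in HC1, 65.5 times in LE and 33.1 times in UN, and at least 11.9-fold higher in YA. In QU the ratio was 1325, which rests on 1 liver count and has an interval of 233 to 52763. Against the even-count livers the intestine had 3.06 and 2.61 times the RTL1 level in HC1, 440 and 232 times in LE, 366 times in QU (122 to 1800), 123 times in UN and 3.19 times in YA (1.04 to 9.75). The YA ratio rests on 8 counts in each of its even-count libraries, so its interval may be too narrow. In skin RTL1 was 24.7 times the own liver in HC1, at least 39.1-fold higher in HC3 and 85.4 times in UN. The even-count livers gave 1.30 and 1.10 times in HC1, 2.02 and 10.1 times in HC3 and 316 times in UN. The own liver gave the larger ratio in HC1, HC3, QU and YA, and the smaller in LE and UN.

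**Figure D2:**
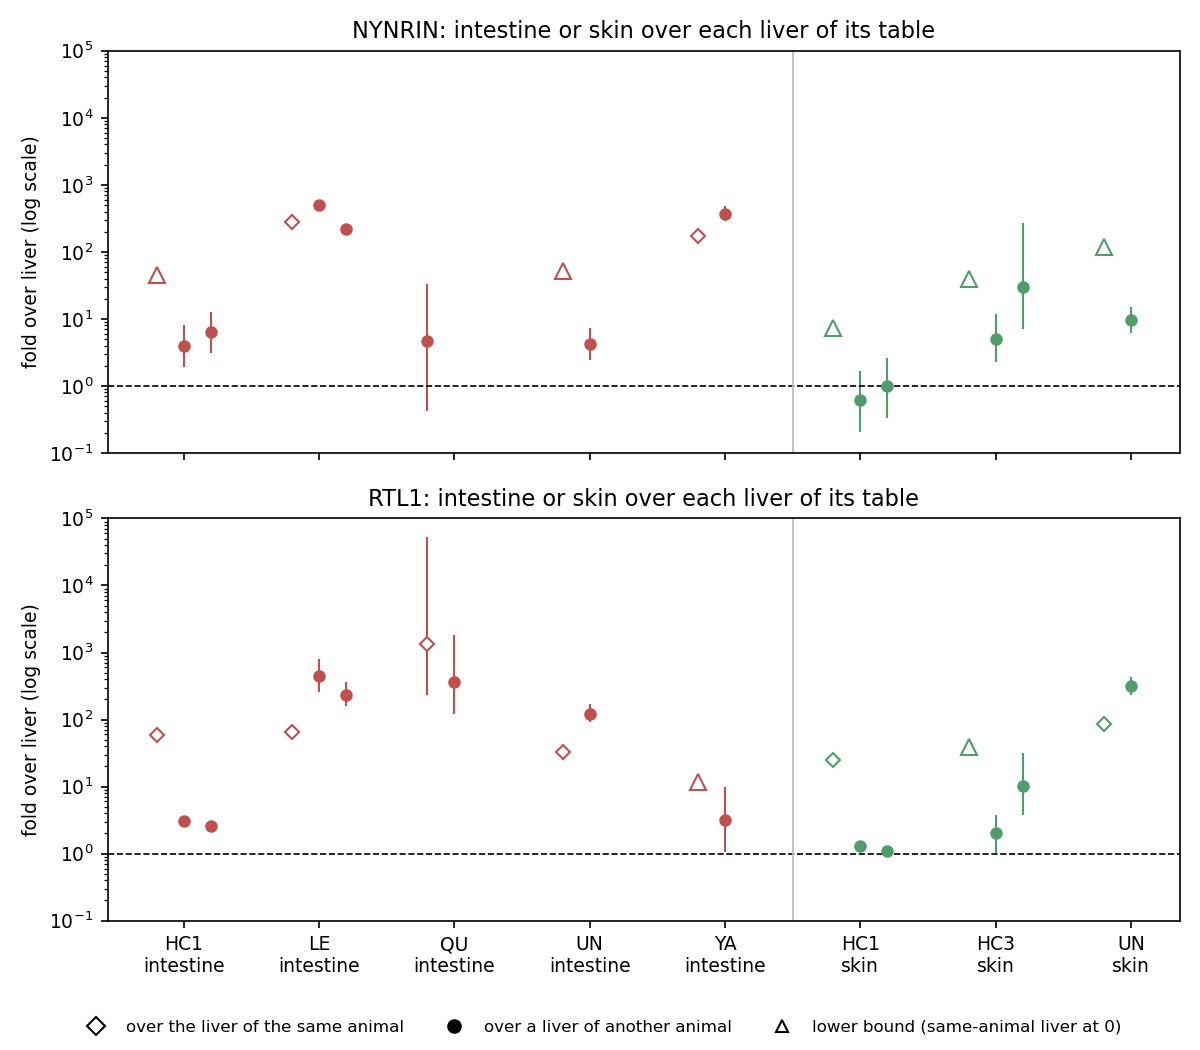
Ratio of intestine (red) or skin (green) CPM to each liver of the same table on a log axis, for NYNRIN (upper panel) and RTL1 (lower panel), with 95% counting intervals, open diamonds for the same animal's liver, filled circles for other animals and open triangles for lower bounds. The HC1 ratios for RTL1 are 58.2 (intestine) and 24.7 (skin) over the own liver and lie between 1.10 and 3.06 over the other livers.

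In the edgeR fit of lineage and tissue over all 23 libraries, the log2 fold change of intestine over liver was 5.44 ± 1.48 for NYNRIN and 5.12 ± 1.37 for RTL1 (SE), and that of skin over liver was 2.40 ± 1.48 and 3.72 ± 1.81. The median over all 2252 genes was 0.71 in intestine and 0.60 in skin. The part of such a shift over all genes in the NYNRIN and RTL1 values was not tested. Without the 6 odd-count livers the values were 4.36 and 4.19 in intestine and 1.67 and 2.55 in skin. With the animal as a block they were 8.03 and 6.36 in intestine and 7.67 and 6.02 in skin. The median over all genes was also higher in the block fit, at 1.63 in intestine and 1.70 in skin. In each animal compared within the block, the liver was odd-count and the intestine or skin even-count. Tissue and library type thus cannot be told apart in the block fit, and nothing is read from its larger values. Single libraries weighed heavily: the NYNRIN value of intestine was 3.78 without the LE intestine, and the RTL1 value of skin was 1.0 without the UN skin.

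Marker genes show what else the tissues held. Each sum takes the genes of a list that the table held, and these differed between tables. There were 13 to 16 hepatocyte, 6 to 11 enterocyte and goblet, 8 to 14 keratinocyte and 2 to 6 erythroid genes. Ranges over lineages thus join sums of unlike gene sets. Summed hepatocyte markers were 424 to 17597 CPM in intestine, 744 to 15720 CPM in skin and 26145 to 230356 CPM in liver, with no overlap between liver and the other tissues. Summed enterocyte and goblet markers were 6013 to 21323 CPM in intestine and 862 to 14756 CPM in skin, against 7.31 to 10171 CPM in liver. Keratinocyte markers were 1181 to 4622 CPM in intestine and 28126 to 34138 CPM in skin, against 42.9 to 602 CPM in liver. Keratinocyte sums of skin did not overlap with those of the other tissues either, while enterocyte and goblet sums overlapped between tissues, with the HC3 skin at 14756 CPM. In each intestine and skin at most 1 gene of each of these 3 lists was at 0. Smooth muscle markers summed to 1906 to 7657 CPM in intestine and 1073 to 1487 CPM in skin, against 70.1 to 1819 CPM in liver, and in edgeR 2 of 3 tested were higher in intestine and 1 in skin. Leukocyte markers summed to 134 to 546 CPM in intestine and 266 to 2029 CPM in skin, against 283 to 1913 CPM in liver, and 3 of 6 tested were lower in intestine and 2 in skin, where 8.44% and 4.09% of all genes were called. Exocrine pancreas markers (41.5 to 1013 CPM in intestine, 13.8 to 1295 CPM in skin and 44.2 to 34698 CPM in liver) and erythroid markers (35.2 to 667, 213 to 9408 and 0 to 9331 CPM in the same order) overlapped between the tissues. The part of cell composition in the levels of NYNRIN and RTL1 was not tested. In such bulk samples, fewer cells of a type and less RNA per cell cannot be told apart.

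Genes of the piRNA pathway, which holds retroelements down in germ cells, were summed with other germ cell genes. The sums were 8.01 to 408 CPM in intestine, 3.77 to 186 CPM in skin and 0 to 3392 CPM in liver. A table held only 2 to 14 of these genes, so sums of different lineages are not of the same genes. DDX4, an RNA helicase that marks germ cells, was listed in the HC1 and HC3 tables only. In HC1 it had 32.5 CPM in intestine and 33.7 CPM in skin, against 556 and 518 CPM in the even-count livers and 0.476 CPM in the odd-count liver, the same livers in which RTL1 was at 697, 817 and 36.6 CPM. In HC3 DDX4 had 51.3 CPM in skin, against 553 and 265 CPM in the even-count livers and 0.695 CPM in the odd-count liver, while RTL1 stayed at 3.10 CPM or less in those livers. DDX4 was picked after its values were seen, and it does not stand for the whole list. With DDX4 included, the list summed to 646, 3392 and 84.8 CPM in the same HC1 livers, in the same order. DDX4 was most of that sum only in the first of them. In HC3 the sums were 186 CPM in skin, 574 and 273 CPM in the even-count livers and 8.82 CPM in the odd-count liver. DDX4 was most of the even-count liver sums but not of the skin sum. The part of these libraries' makeup in the RTL1 level of the HC1 livers was not tested.

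Intestine and skin could be set side by side in 2 animals, and they stood in opposite order. In the HC1 animal, NYNRIN in intestine was 6.27 times its level in skin (2.38 to 19.3) and RTL1 2.36 times (2.26 to 2.46). In the UN animal NYNRIN in intestine was 0.440 times its level in skin (0.269 to 0.700) and RTL1 0.388 times (0.361 to 0.417). Of the 6984 genes in both tables, 2396 (34.3%) were higher in intestine than in skin in HC1 and lower in UN, and 44.6% were in opposite order either way, so this order was common. With 1 animal in each lineage it was not tested.

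Between the livers of the 6 lineages RTL1 differed and NYNRIN did not pass the test. Mean RTL1 was 0.120 ± 0.096 CPM in QU, 0.370 ± 0.523 CPM in YA and 6.31 ± 5.13 CPM in UN (SD, n = 2 each). The H. leechii lineages had 1.24 ± 1.64 CPM in HC3, 4.67 ± 4.48 CPM in LE and 517 ± 420 CPM in HC1 (SD, n = 3 each). The lowest HC1 liver, at 36.6 CPM, was above the highest of any other lineage, 9.94 CPM in UN. How many of all genes had a lineage set apart in this way was not counted, so nothing is read from this gap. The order of the other lineages is not resolved, since the livers of UN and LE overlapped, as did those of HC3 and LE and those of HC3 and YA. In edgeR's quasi-likelihood F test over 15 livers RTL1 had an adjusted p of 0.00389 (Benjamini-Hochberg, as for all adjusted p here). A lineage difference was found for 1473 of the 2251 genes tested (65.4%), so RTL1 shares it with most genes. Each lineage also had its own table, and a symbol need not stand for the same stretch of sequence in each. APOB, a main lipoprotein gene of liver, had 10834 to 23227 CPM in the livers of QU, YA and HC3, against 1.62 CPM or less in those of UN, HC1 and LE. The part of the tables in the lineage differences of NYNRIN and RTL1, in liver and in intestine, was not tested.

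Mean NYNRIN was 0.125 ± 0.177 CPM in QU, 1.03 ± 1.46 CPM in UN and 9.86 ± 5.06 CPM in YA (SD, n = 2 each). The H. leechii lineages had 0.482 ± 0.664 CPM in HC3, 1.12 ± 1.05 CPM in HC1 and 24.3 ± 9.39 CPM in LE (SD, n = 3 each). The LE and YA livers, from 6.29 CPM up, stood above all 10 livers of the other lineages, of which the highest had 2.08 CPM. These lineages were set apart after their values were seen. The share of all genes with a gap of this kind was not counted, so nothing is read from it. LE and YA were also the lineages with the highest NYNRIN in intestine. The lowest LE liver (14.3 CPM) and the highest YA liver (13.4 CPM) differed by less than their counting intervals, and the livers of the other 4 lineages overlapped. The F test gave an adjusted p of 0.106 in edgeR. It gave 0.0475 with whole-table library sizes, where 1651 of 2251 genes were called. With a term for library type it gave 0.0154, where 1771 of 2251 were called. In DESeq2, which called 84.8% of all genes, it gave 0.00757.

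No contrast of a single species with H. leechii passed the edgeR test for either gene. For RTL1 the log2 fold change over the mean of the 3 H. leechii lineages, weighted equally, was -6.45 ± 2.41 in QU (adjusted p = 0.0645), -1.43 ± 1.69 in UN (0.571 as adjusted p) and -5.63 ± 2.28 in YA (0.0879 as adjusted p). The QU and YA values passed in DESeq2 and with a term for library type. The QU value also passed with whole-table library sizes, with median-of-ratios size factors (edgeR, adjusted p = 0.0497) and without the HC1 liver of animal mms7665 (0.0448), the HC3 liver of animal mms7661 (0.0389) or the YA liver of animal mms7701 (0.0497). For NYNRIN the edgeR values were -3.74 ± 2.47 in QU, -0.89 ± 1.98 in UN and 1.57 ± 1.65 in YA, with adjusted p of 0.287, 0.802 and 0.507. The share of genes called in these edgeR contrasts was 27.5%, 28.5% and 25.9%, and it was not counted for the alternatives. Single livers moved these values: RTL1 in YA was -10.80 without the YA liver of animal mms7700 and -4.07 without that of mms7701, and NYNRIN in QU was -8.27 without the QU liver of animal mmsX002 and -2.68 without that of mms7722, none of them past the threshold. The UN value of NYNRIN turned to 0.12 without the UN liver of animal mms7712, in which the gene was at 0.

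The spread of NYNRIN and RTL1 within each tissue was set beside that of all genes, as a description. On the log2(CPM + 1) scale, the SD of NYNRIN over the 5 intestines was 5.29, the 9th largest of 2252 genes, whose median was 1.83. Over the 15 livers its SD was 1.84, under the median of 2.21. RTL1 had an SD of 3.59 over the intestines, at place 123, and of 3.17 over the livers, at place 340. Over the 3 skins the SD was 1.59 for NYNRIN, under the median of 1.88, and 3.99 for RTL1, at place 184. The members were chosen on their intestine and skin values, so nothing is read from these places. Each of the 5 intestines, and each of the 3 skins, was also of another lineage and table.

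The levels of NYNRIN and RTL1 ran largely apart. Across all 23 libraries Spearman's rho between them was 0.21, which placed RTL1 at 1000 among the 2251 other genes by likeness to NYNRIN, and across the 15 livers it was 0.10. The 5 genes most like NYNRIN were ZFAND3, a zinc finger protein (rho 0.89), EPB41, the membrane skeleton protein 4.1R (0.87), ABCF2 (0.86), the ubiquitin ligase MYCBP2 (0.86) and the histone demethylase KDM3A (0.86). Those most like RTL1 were MAN2A1, a Golgi mannosidase (rho 0.91), ZNF638 (0.89), the chaperone regulator BAG4 (0.88), SMAD1, which carries BMP signals (0.87), and the ubiquitin ligase MGRN1 (0.87). These are the highest of 2251 values over libraries that share tissues, depth and library type, and they carry no p. With livers alone, 3 of the 5 genes for NYNRIN and 1 of the 5 for RTL1 were again among the top 5. Over the 17 even-count libraries it was 0 of 5 for NYNRIN and 2 of 5 for RTL1 (MAN2A1 and BAG4), so these lists changed with the libraries used.

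Beyond the members, symbols of 17 other genes of retroelement origin were present in at least 1 table, and nearly all stood higher in intestine and skin than in liver. As for the members, whether a symbol stands for the same locus in each table, or for a mobile copy that resembles the gene, was not tested. They make up 46 rows in the 5 tables with intestine, and 44 were above every liver of the table, against the 53.9% to 73.1% of all genes given above. The exceptions were PNMA3 in HC1 and ERVFRD-1 in LE, both at 0 in intestine. Some of the 44 rest on few counts, no more than in a liver, in a library with a smaller total. In LE, PEG10 had 2 counts in intestine and 2, 2 and 0 in the livers, and GIN1 had 6 against 6, 8 and 6. In skin 33 of 35 rows were above every liver, against 54.7% to 69.1%, and the exceptions were L1TD1 in HC1 and GIN1 in UN, at 0 in skin. The rows of a table share its libraries, so they are not independent. Other lists had high shares too. Genes derived from DNA transposons had 41 of 51 rows above every liver in intestine and 31 of 35 in skin. Other genes of the NYN type had 13 of 17 and 9 of 10. Genes that silence retroelements had 50 of 86 and 37 of 55, and those that restrict them 44 of 66 and 27 of 39. The piRNA and germ cell genes had 9 of 26 and 8 of 25. The summed level of the 17 genes of retroelement origin was 677 to 6329 CPM in intestine and 824 to 2697 CPM in skin. In liver it was 5.52 to 106 CPM, with no overlap. A table held only 4 to 15 of these symbols, so sums of different lineages are not of the same genes. Within each table too, the intestine and skin sums were above those of its livers.

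Which of these symbols was high in intestine changed with the lineage, and so with the table. Lineage and table cannot be told apart here. GIN1 (gypsy integrase 1), a gene with an integrase-like product, had 5550.0 CPM (9452 counts) in the QU intestine, against 57.9 CPM in the own liver and 16.8 CPM in the other. It had 439 CPM in the YA intestine, against 6.29 and 3.84 CPM in the YA livers, and 0.903, 3.05 and 0.668 CPM in the intestines of HC1, LE and UN. PEG10, like RTL1 a Gag-Pol derived and imprinted gene with a role in the mouse placenta, had 1158 CPM in the HC1 intestine, 740 CPM in QU and 907 CPM in UN, but 1.02 CPM in LE, against livers of at most 28.3 CPM. PNMA3, of the Gag-derived paraneoplastic antigen family, had 381 CPM in the LE intestine, against 1.25 to 1.99 CPM in the LE livers. In the HC3 skin it had 478 CPM, against 7.16 to 10.96 CPM in the HC3 livers.

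**Figure D3:**
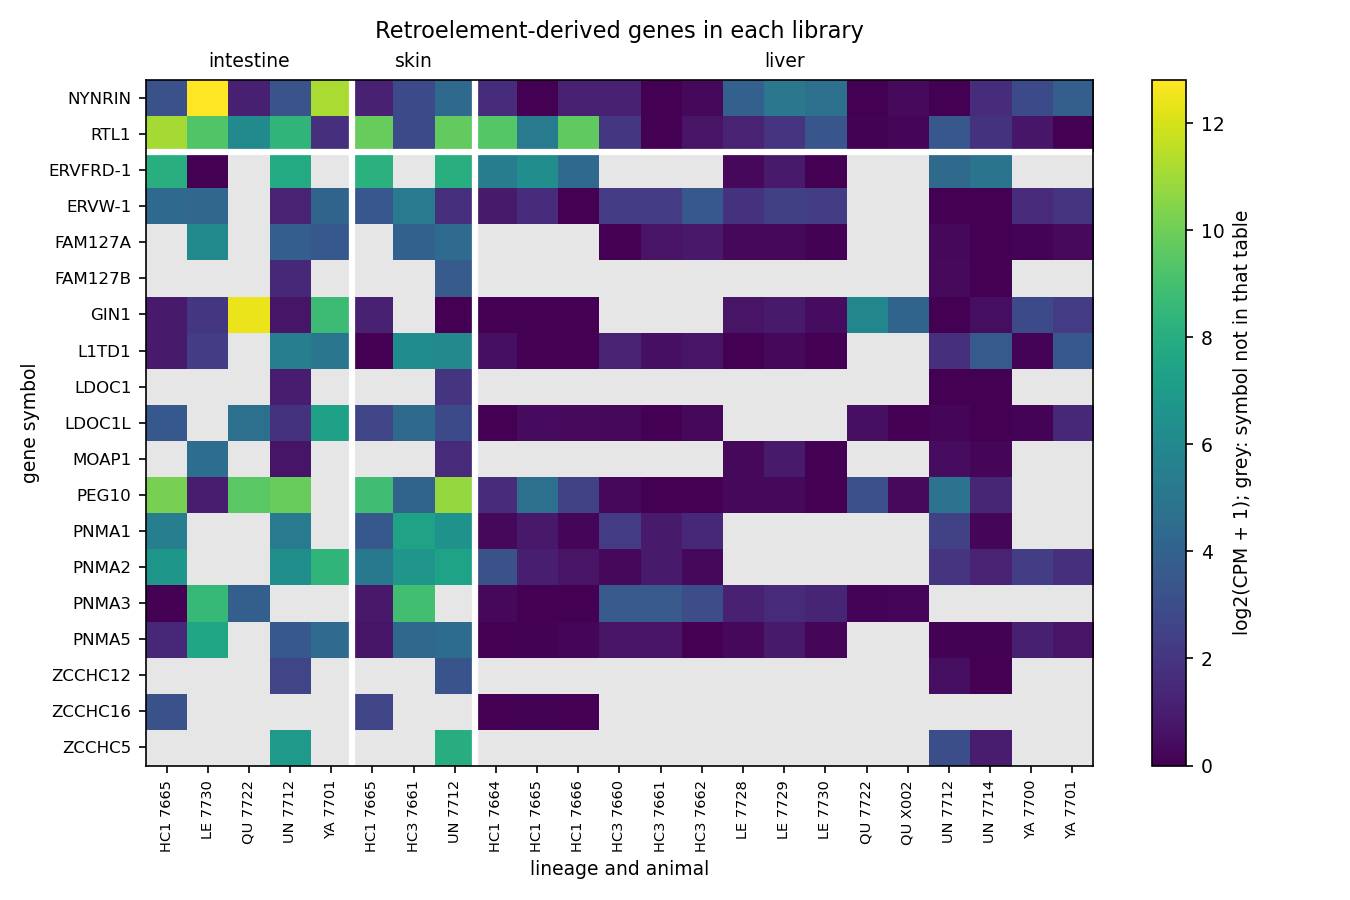
Level of NYNRIN, RTL1 and 17 other genes of retroelement origin as log2(CPM + 1) in 23 libraries, with intestines, skins and livers in blocks from left to right and grey where a table lacks the symbol. The brightest cells are NYNRIN in the LE intestine (7155 CPM) and GIN1 in the QU intestine (5550.0 CPM). In the liver block RTL1 in the HC1 livers of animals mms7664 and mms7666 (697 and 817 CPM) stands above every other cell. Of those others, ERVFRD-1 in an HC1 liver (75.7 CPM) is the highest.

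In the 5 tables with intestine, GIN1 was the one other gene of retroelement origin found in all and tested. It was higher in intestine, with a log2 fold change of 4.82 ± 1.11 and an adjusted p of 0.0226 in edgeR, where 139 of 2821 genes (4.93%) were called, 110 of them higher (3.9%). The call was lost without the odd-count livers (3.84, adjusted p = 0.0653, with 6.56% of genes called higher), with a term for library type (adjusted p = 0.0855, with 2.06% called higher), with the animal as a block (adjusted p = 0.159, with 0 genes called and 574 at an unadjusted p under 0.05) and without the HC1, QU or YA intestine (adjusted p = 0.0824, 0.105 and 0.0818). It kept a positive value in each of these fits.

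In the 3 tables with skin, 7 other genes of retroelement origin were tested, and 4 were higher in skin, where 252 of 4736 genes (5.32%) were called, 188 of them higher (3.97%). PEG10 had 470 CPM in HC1, 16.5 CPM in HC3 and 1767 CPM in UN skin, against 0 to 28.3 CPM in the 8 livers, and a log2 fold change of 5.95 ± 1.07 (edgeR, adjusted p = 0.0163). LDOC1L, a small Gag-derived gene of the same family, had 5.40, 20.4 and 6.38 CPM in the skins, against 0 to 0.297 CPM in the livers (5.32 ± 1.15, adjusted p = 0.0292). PNMA1 had 10.6, 164 and 89.97 CPM in the skins, against 0.125 to 4.78 CPM in the livers (4.57 ± 0.84, adjusted p = 0.0169). PNMA2 had 35.2, 101 and 174 CPM in the skins, against 0.207 to 8.07 CPM in the livers (5.28 ± 1.03, adjusted p = 0.0209). Both belong to the paraneoplastic antigen family.

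The 3 that did not pass in skin were PNMA5, at 4.97 (adjusted p = 0.0541), the retroviral envelope gene ERVW-1, at 3.19 (adjusted p = 0.217), and L1TD1, at 3.17 (adjusted p = 0.270), which derives from a LINE-1 element. The median of the 7 log2 fold changes was 4.97, and that of all 4736 genes was 0.74. With the animal as a block, no gene of the 4792 tested was called by edgeR (865 had an unadjusted p under 0.05), and the adjusted p of the 4 genes was 0.260. The count of 4 became 3 without the odd-count livers, where 4.76% of genes were called higher, and 2 with a term for library type, where 1.39% were. DESeq2 called 6, where 18.6% of all genes were called higher, and gave the seventh, PEG10, no adjusted p. The LDOC1L call was the least stable, lost in 7 of the 11 fits without 1 library (adjusted p up to 0.229) and with the library type term (0.0580). Each skin carried weight, since 1 gene was called without the HC1 skin and 0 without the HC3 or the UN skin, and 2 were called without the HC3 liver of animal mms7660 or the UN liver of animal mms7714.

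**Figure D4:**
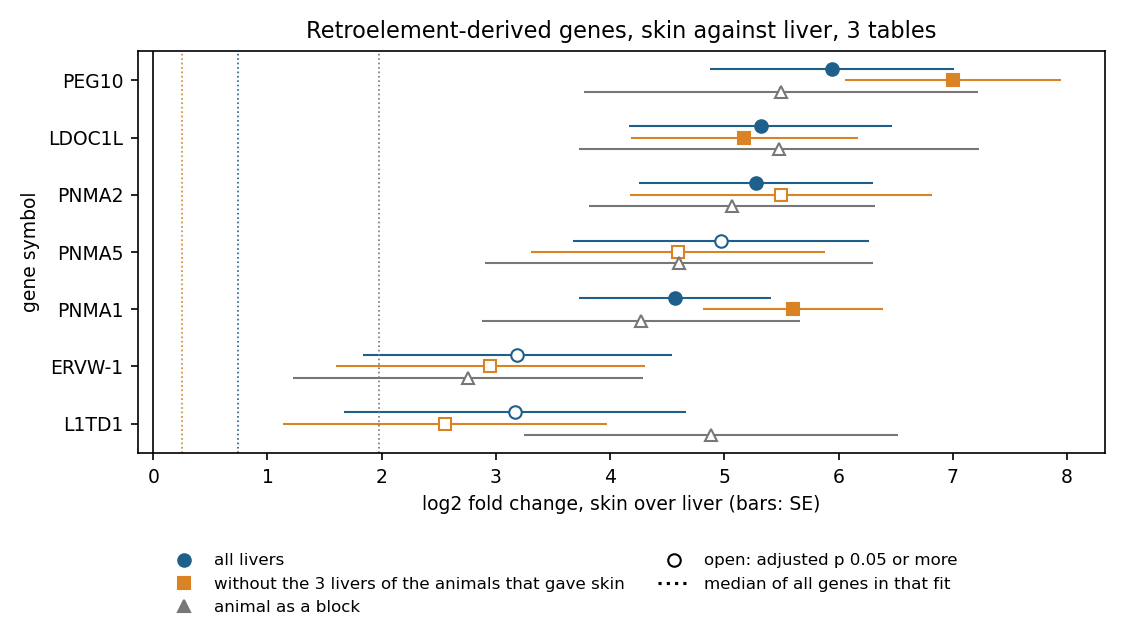
Log2 fold change of skin over liver with its SE for 7 genes of retroelement origin in the 3 tables that hold skin, from 3 edgeR fits, with filled symbols for an adjusted p under 0.05 and dotted lines at the median of all genes. All 7 values are positive in each fit, 4 pass with all livers, 3 without the odd-count livers and 0 with the animal as a block.

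Genes derived from DNA transposons, which move without an RNA copy, gave 1 call among 5 tested in skin, where 5.32% of all genes were called. In the intestine tables they gave 0 calls among 2 tested, where 4.93% of all genes were called. GTF2IRD2B, which carries a transposase-derived end, had 68.6 to 107 CPM in the skins, against 0.415 to 9.63 CPM in the livers (3.98 ± 0.62, edgeR adjusted p = 0.00894). Its call was lost with the animal as a block (adjusted p = 0.260) and without the HC3 skin (adjusted p = 0.103). The others, ZBED6, PGBD5, EPM2AIP1 and THAP9, had log2 fold changes of 2.98, 2.40, 1.95 and 1.81. KHNYN, the closest relative of NYNRIN and in human cells a partner of the antiviral protein ZAP, had 2.35 to 54.9 CPM in the skins, against 0 to 25.1 CPM in the livers (0.73 ± 1.22, adjusted p = 0.783). ZC3H12A, an RNase of the same NYN type, had a value of 1.83 ± 1.22 (adjusted p = 0.436).

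In the edgeR fits of lineage and tissue with TMM factors and all livers, no gene that silences or restricts retroelements passed. These fits called 0 of 14 silencing genes and 0 of 7 restriction genes in the skin tables, and 0 of 7 of each list in the intestine tables. The genes with an unadjusted p under 0.05 were 1 silencing and 3 restriction genes in skin, against 20.3% of all genes, and 3 and 4 in intestine, against 21.5%. DESeq2 called 0 silencing and 3 restriction genes in skin, all higher, where it called 24.3% of all genes. In intestine it called 4 silencing genes (3 higher) and 6 restriction genes (4 higher), where it called 36.5% of all genes, 31.1% higher. In edgeR without the odd-count livers 3 of the 7 restriction genes passed in intestine, where 12.1% of all genes did. MOV10 was higher (2.73, adjusted p = 0.0490), while RNASEH2B, a subunit of the RNase that cuts RNA in hybrids with DNA, and HNRNPL, an RNA-binding protein, were lower (-1.83 and -1.88, adjusted p = 0.0205 and 0.0340). With a term for library type RNASEH2B alone passed (-1.83, adjusted p = 0.0471), where 4.08% of all genes did. With all livers the largest value in intestine was that of MOV10, an RNA helicase that restricts retroelements in human cells, at 4.05 ± 1.17 (adjusted p = 0.0609). It rests on 2 to 6 counts in each intestine, against 0 to 4 in each liver, which is near the floor of 3 (0.903 to 3.52 CPM, against 0 to 0.441 CPM). ATF7IP, which keeps the histone methyltransferase SETDB1 in the nucleus, had 3.11 ± 1.34 (adjusted p = 0.195). ADAR, which edits double-stranded RNA, had 3.09 ± 1.44 (adjusted p = 0.229), and EHMT2, another histone methyltransferase, -1.85 ± 0.76 (adjusted p = 0.177). In skin CHAF1A, a chromatin assembly subunit, had the largest value of the silencing genes, 3.51 ± 1.40 (adjusted p = 0.190), and SETDB1 had 0.16 ± 1.17. HENMT1, which methylates piRNA ends, was the one piRNA gene tested in skin, at -0.81 ± 0.95.

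Over the genes found in all 6 tables, 10 listed genes were tested. None passed in either tissue in the edgeR fit of lineage and tissue with TMM factors and all livers. That fit called 190 of 2252 genes (8.44%) in intestine and 92 (4.09%) in skin. In intestine 7 of the 10 had an unadjusted p under 0.05, against 24.7% of all genes. DESeq2 called 8 of the 10, 5 of them higher, where it called 37.3% of all genes, 32.1% higher. In skin 2 of the 10 had an unadjusted p under 0.05, against 18% of all genes, and DESeq2 called 0, where it called 19.9%. The direction of the calls over all genes moved with the scaling and the livers used. In intestine 140 genes were higher and 50 lower, against 336 and 44 with median-of-ratios size factors, 211 and 150 without the odd-count livers, and 60 and 61 with a term for library type. In skin 69 were higher and 23 lower, against 151 and 25, 153 and 98, and 51 and 26 in the same order.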

How the data were processed

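Polyadenylated RNA of 23 tissue libraries was measured by RNA-seq. The authors deposited raw read counts, per the file headers, as 6 tables (1 for each lineage) whose rows pair a gene symbol with a sequence identifier. Per the submitters' processing notes BWA and SAMtools were used, and versions, build and counting rule are not given in the sources used here. The extraction protocol speaks of embryos, while all samples are labelled as adult tissue. All rows of the QU table carry 1 identifier. Counts on the nameless row, 0.169% of a library or less, were not used. Lineage, tissue and animal come from the titles, which match the column names and, in all 23 samples, the table that holds the column, and 0 columns were left unmapped. The descriptions of 18 samples name another lineage's table and were not followed.

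CPM used whole-table totals. Counts of genes in all 6 tables were fitted in R 4.3.3 with edgeR 4.0.16 (filterByExpr with a minimum count of 10, TMM factors, glmQLFit robust, glmQLFTest), with lineage and tissue as terms over 23 libraries, and lineage alone over 15 livers. The genes of the 5 tables with intestine or the 3 with skin were fitted in the same way on those tissues and livers. P-values were adjusted by Benjamini-Hochberg over all genes of a fit, with 0.05 as the threshold. SE is the log2 fold change divided by the square root of F. The scripts were tested on simulated counts. P-values measure the spread between these libraries, which may be technical. Levels were not corrected for transcript length, so genes are not ranked against each other.

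Same animal means same number in the titles, which is the source of the pairing. It could not be checked from deviations, since the liver of every pair was an odd-count library, and the animal was used as a block as an alternative. For the same reason, fits with this block cannot tell tissue from library type. Other alternatives were median-of-ratios factors, DESeq2 1.42.0, no filter, 5 CPM in 3 libraries, whole-table library sizes, a library type term, no odd-count livers, each library left out, and floors of 1 and 10 counts. Those for the genes of the 5 or 3 tables were added after seeing the data. Intervals are exact 95% counting intervals that take each count as a separate fragment, and may be too narrow in even-count libraries. Library type was set at 0.3 odd among counts under 20.

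The members, the gene lists, the markers and the tests were chosen with earlier results of these data known. Named are the members, listed genes that passed a test or else up to 4 of a list with the highest CPM, and the 5 genes most like each member. Other listed genes named, with DDX4, PNMA3 and APOB, were chosen after their values were seen. No sequence was used.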

Additional observations from a re-analysis of the deposited data

Results flagged for a closer look

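NYNRIN and RTL1 stood in opposite order in intestine and skin of the 2 animals that gave both. In the HC1 animal intestine was 6.27 times skin for NYNRIN and 2.36 times for RTL1, and in the UN animal 0.440 and 0.388 times. Each lineage had 1 animal, so the difference was not tested, and 3114 of 6984 genes (44.6%) were in opposite order in these animals.

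GIN1 in the 5 intestines held a value far from the others, 5550.0 CPM in QU, against 0.668 to 439 CPM in the other 4. The gap to the next value was 0.921 of the range, over the critical value of 0.71. Chance flags about 1 in 20 such groups if the values are normally distributed, and 3 genes were examined. The rule was applied to CPM without a log scale, over intestines of different lineages, so this rate need not hold here.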

How the results depend on the processing

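RTL1 kept its liver F test call under all 6 alternatives and in all 15 fits without 1 liver (adjusted p 0.00336 to 0.0123). The NYNRIN F test passed with DESeq2 (0.00757), whole-table sizes (0.0475) and library type as a term (0.0154), and without each liver ranged from 0.0405 to 0.231. The RTL1 contrast of QU passed with median-of-ratios factors (-6.31), DESeq2 (-6.38), whole-table sizes (-6.83) and the type term (-6.29), with -7.94 to -5.63 without each liver, and that of YA with DESeq2 (-5.21) and the type term (-5.87). The RTL1 contrast of YA ranged from -10.80 to -4.07 and the NYNRIN contrast of QU from -8.27 to -2.68 without each liver. The NYNRIN contrast of UN ranged from -8.26 to 0.12 without each liver and so turned sign. Over all genes the liver F test called 1469 to 1908 genes under the 6 alternatives, against 1473 without them.

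Counts of genes called in intestine were 380 with median-of-ratios factors, 839 with DESeq2, 512 with whole-table sizes, 121 with the type term, 99 with the replicate block, 0 with the block in animals with both tissues and 361 without odd-count livers, and 82 to 133 without each intestine. Without these changes 190 of 2252 genes (8.44%) were called, and 0 of the 10 listed genes tested. Listed genes called there were 3, 8, 4, 1, 2, 0 and 5 in the same order. With the genes of the 5 tables it was 1 of 17 tested, where 4.93% of all genes were called. In skin the counts were 176, 448 and 398 with the first 3, 0 with either block, 251 without odd-count livers, 252 with the genes of the 3 tables and 25 to 58 without each skin. In skin too, 0 of the 10 listed genes tested were called without these changes, where 4.09% of all genes were. Listed genes called in skin were 1 with whole-table sizes and 2 without odd-count livers. With the genes of the 3 tables it was 5 of 36 tested, where 5.32% of all genes were called. The NYNRIN value of skin was 7.67 and 9.01 with the replicate block.

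Among retroelement-derived genes called higher, GIN1 in intestine was lost (0 genes) without odd-count livers, with the type term and with the block, and 0 to 1 were called without each library. In skin 2 were called with the type term, 0 with the block and 0 to 4 without each library. The block, paired by animal from the labels, left 0 genes called in the 5 intestine and the 3 skin tables, GTF2IRD2B included (adjusted p = 0.260). Livers alone, 1 per animal, allow no block. A floor of 10 counts lowered the NYNRIN bounds in intestine to 13.7 in HC1 and 15.8 in UN and both HC3 skin bounds to 11.7, and left no bound for RTL1 in the YA intestine. Low counts limit QU and HC3, where members rest on 16 counts or fewer apart from RTL1 in the QU intestine (117) and the HC3 liver of animal mms7660 (30), and 13 of 14 member counts from 1 to 19 in even-count libraries were even.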
